A study of Mus musculus with 9 samples.

Results

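The mRNAs described here encode Chtop and its partners in mRNA export, the transcription-export (TREX) machinery: Chtop, Thoc1, Thoc2, Thoc5, Alyref, Ddx39b, Nxf1, Poldip3, Zc3h11a and Ncbp3. They were chosen by symbol from the deposited tables, where 9 of the 10 symbols were found, under 10 of the 22442 gene identifiers. Alyref was not analysed here. Zc3h11a had 2 identifiers whose totals differed in 1 library, by 4 counts, so they were taken as the same reads and counted once. The values came from iCLIP, an assay that joins RNA to bound protein by ultraviolet light, pulls the protein down with an antibody and sequences the RNA fragments attached to it.

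TREX couples the making of an mRNA to its export from the nucleus. Within it, the THO complex holds the RNA helicase Ddx39b on the transcript, adaptor proteins such as Alyref, Chtop and Poldip3 join, and the RNA is handed to the export receptor Nxf1. Chtop is an arginine-methylated RNA-binding protein that binds Nxf1, and it is known to regulate the splicing of its own transcript. The question was whether Chtop held its own mRNA and the mRNAs of its partners, and whether the 2 isoforms differed in this.

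All libraries were from N2a Flp-In rtTA cells, a mouse neuroblastoma line that expresses a cDNA under doxycycline. Cells received 2 µg/mL of doxycycline for 24 hours and were crosslinked with 0.15 J/cm2 at 254 nm. Anti-FLAG precipitates were made from a line with a FLAG-Chtop cDNA that includes exon 5 (3 libraries) and from a line whose FLAG-Chtop cDNA lacks it (3 libraries). The reference was 3 size-matched inputs, each from 2% of a crosslinked lysate that skipped the antibody and ran on the same kind of gel. Per the labels, replicates were independent and processed on separate days. Each input had its own source. The lysate of replicate 2 was made from cells of the exon 5 line, that of replicate 1 from cells whose cDNA lacks the exon, and that of replicate 3 from cells with FLAG-GFP. All precipitates of an isoform came from 1 line, so isoform and line cannot be told apart. For Chtop itself, counts per gene part do not separate the induced cDNA from the cell's own mRNA.

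Depth differed between the groups. Totals ran from 783868 to 1328423 counts with exon 5 and from 624062 to 1844970 without, against 75504 to 173342 in the inputs. A level of 3 counts in 1 library, the limit used for a count of 0, corresponded to 2.10 to 5.51 CPM (reads of a gene relative to the TMM-adjusted size of its library) in the isoform libraries and to 16.3 to 21.1 CPM in the inputs. These limits cover counting error only. Log CPM correlated across genes at 0.716 to 0.727 with exon 5 and at 0.756 to 0.823 without, against 0.279 to 0.377 among the inputs. Of 15 neuroblastoma marker symbols, 10 were named in the tables. Their summed counts per library were 883 to 1778 with exon 5, 573 to 1315 without and 56 to 295 in the inputs, while Dbh and Nefl were near 0 with 8 and 3 counts over all 9 libraries. Of 12 markers of other cell types, 5 were named, with at most 1, 5 and 10 summed counts per library of the 3 groups. Of these, Col3a1, Myod1 and Alb were at 0.

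Against input, 4 of the 9 measured genes were higher with exon 5 and the same 4 without: Thoc1, Ddx39b, Poldip3 and Zc3h11a. Each of these 4 was at 0 in at least 2 of the 3 inputs. They entered the test through the isoform libraries, where they were high. Ncbp3 was lower in both comparisons. Chtop, Thoc2, Thoc5 and Nxf1 did not pass. By the quasi-likelihood test of edgeR (Benjamini-Hochberg adjusted p under 0.05), 8.31% of the 8342 genes tested were higher with exon 5 and 0.863% were lower, and without exon 5 these shares were 8.12% and 0.587%. The 2 comparisons share their inputs, so their likeness is not separate evidence. The median log2 fold change of all genes tested was 1.03 in each comparison, and that of the 9 genes was 2.42 with exon 5 and 2.56 without. Input libraries did not overlap the isoform libraries for 6 genes that were higher and 1 that was lower in each comparison, where 33.1% and 35.9% of all genes lay apart higher and 3.4% and 3.43% lay apart lower. Most of the 10 calls ended when an isoform library was left out, also one of the isoform not compared. When 1 of the 6 isoform libraries was left out, 3 of 60 repeated tests passed (edgeR adjusted p from 0.0348 to 0.114), the 3 being Ncbp3 without exon 5. When an input was left out, all 30 repeated tests passed (edgeR adjusted p from 0.00071 to 0.043). With only the 2 groups compared in the fit, Poldip3 without exon 5 was removed by the filter, and none of the other calls passed. The labels do not say whether same-numbered libraries of different groups shared a day. With the replicate number as a block, Ddx39b and Zc3h11a passed in edgeR in both comparisons and Ncbp3 without exon 5, while Thoc1, Poldip3 and, with exon 5, Ncbp3 did not.

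**Figure D1:**
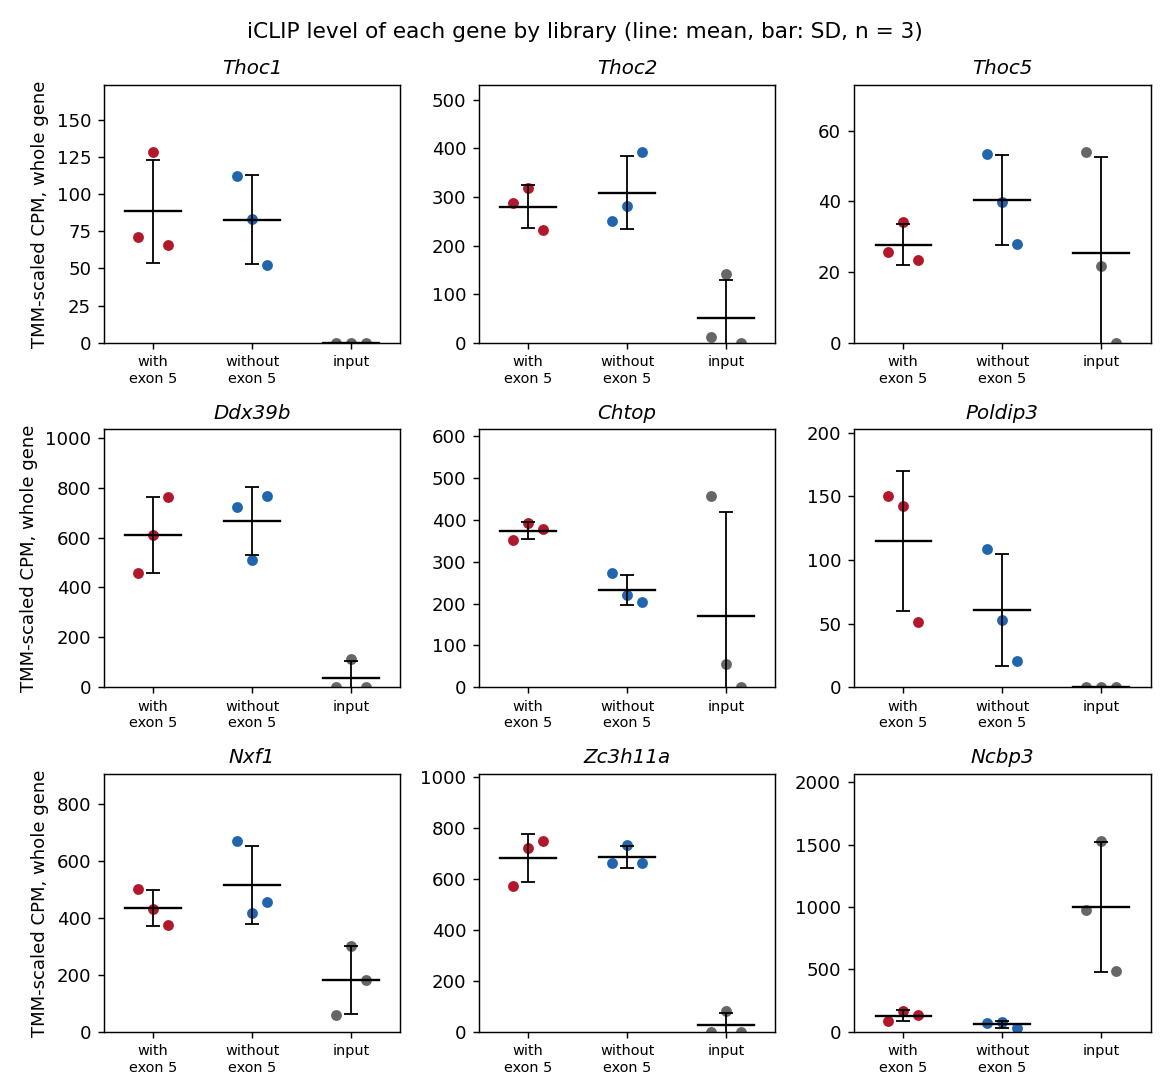
Level of each gene (vertical axes, TMM-scaled CPM over the whole gene, from 0) in the 3 libraries with exon 5, the 3 without exon 5 and the 3 inputs. Points are libraries, the line is the mean and the bar the SD. Thoc1 and Poldip3 lie at 0 in all 3 inputs, and Ncbp3 is the gene whose inputs stand above every isoform library.

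The THO complex is the core of TREX. Thoc1 encodes one of its subunits. It stood at 71.4, 128 and 65.5 CPM with exon 5 and at 112, 83.5 and 52.5 CPM without, and at 0 in all 3 inputs. The isoform groups overlapped each other and lay apart from the inputs. Against the limit of 3 counts per input, Thoc1 was by group means at least 4.78-fold higher with exon 5 (edgeR adjusted p = 0.0244) and at least 4.47-fold higher without (edgeR adjusted p = 0.0266). It entered the test through the isoform libraries alone, as did Poldip3. Ddx39b and Zc3h11a had counts in only 1 input each, so they too passed the filter through the isoform libraries.

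Thoc2 encodes the large scaffold subunit of THO. Its level was 287, 320 and 232 CPM with exon 5, 250, 282 and 393 CPM without, and 12.01, 142 and 0 CPM in the inputs. Every isoform library was above every input. The log2 fold change was 2.42 with exon 5 (SE 1.12, edgeR adjusted p = 0.165) and 2.56 without (SE 1.12, edgeR adjusted p = 0.148). Input replicate 2 held 26 of the 28 input counts. Left out, it gave 5.47 (edgeR adjusted p = 0.00512) with exon 5 and 5.64 (edgeR adjusted p = 0.0048) without. In those fits 2411 and 2354 of 9089 genes passed, against 765 and 726 of 8342 in the main fit. Thoc2 did not pass when another input was left out (edgeR adjusted p up to 0.192 and 0.165).

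Thoc5 encodes a THO subunit that also binds Nxf1. It had 25.7, 34.2 and 23.4 CPM with exon 5, 53.3, 40.0 and 27.98 CPM without, and 54.1, 21.8 and 0 CPM in the inputs. All 3 groups overlapped. Its log2 fold change was 0.12 with exon 5 (SE 1.28, edgeR adjusted p = 0.965) and 0.66 without (SE 1.29, edgeR adjusted p = 0.786). The sign of both turned with library size alone as the scale, to −0.59 and −0.055.

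Ddx39b, also known as UAP56, is the DEAD-box helicase that loads adaptors onto the mRNA. It had 458, 609 and 761 CPM with exon 5 and 722, 509 and 765 CPM without. In the inputs, replicate 2 had 114 CPM and replicates 1 and 3 were at 0. The isoform groups overlapped, and both lay above the inputs. Its log2 fold change was 3.95 with exon 5 (SE 1.13, edgeR adjusted p = 0.043) and 4.08 without (SE 1.14, edgeR adjusted p = 0.0403). Its paralog Ddx39a is close in sequence, and the sources used here do not say how reads that match both were counted.

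Chtop had 353, 392 and 378 CPM with exon 5, 272, 220 and 204 CPM without, and 456, 54.5 and 0 CPM in the inputs. The single highest value of the 9 was input replicate 1, from the line without exon 5, and the 0 was the FLAG-GFP line. The log2 fold change against input was 1.13 with exon 5 (SE 1.10, edgeR adjusted p = 0.544) and 0.44 without (SE 1.09, edgeR adjusted p = 0.835). The 95% intervals ran from −1.21 to 3.48 and from −1.88 to 2.77. These values depended on which inputs were in the fit. Leaving out 1 input gave 0.57 to 3.80 with exon 5 and −0.12 to 3.13 without. The high ends came without input replicate 1 (edgeR adjusted p = 0.0302 with exon 5 and 0.0518 without). The −0.12 came without input replicate 3, the one at 0. The value without exon 5 turned to −0.10 with RLE size factors and to −0.35 with library size alone.

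Poldip3, also called PDIP3 or SKAR, is an export adaptor that works beside Alyref. Its level was 150, 143 and 51.5 CPM with exon 5, 108, 52.9 and 21.0 CPM without, and 0 in all 3 inputs. Library 3 was the lowest of each isoform group, and the isoform groups overlapped. By group means, Poldip3 was at least 6.20-fold higher with exon 5 (edgeR adjusted p = 0.0251) and at least 3.29-fold higher without (edgeR adjusted p = 0.038). Library 3 without exon 5, at 21.0 CPM, was itself little above the input limit of 18.5 CPM.

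Nxf1 encodes the receptor that carries mRNA through the nuclear pore. It had 503, 429 and 376 CPM with exon 5, 671, 417 and 455 CPM without, and 60.1, 300 and 183 CPM in the inputs. Nxf1 was counted in every input, and each isoform library was above all of them. The log2 fold change was 1.27 with exon 5 (SE 0.71, edgeR adjusted p = 0.25) and 1.504 without (SE 0.71, edgeR adjusted p = 0.176). Left out, input replicate 2 gave 1.90 (edgeR adjusted p = 0.044) and 2.16 (edgeR adjusted p = 0.0292). In those fits 2411 and 2354 of 9089 genes passed, against 765 and 726 of 8342 in the main fit. Nxf1 did not pass when another input was left out (edgeR adjusted p up to 0.270 and 0.174).

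Zc3h11a encodes a zinc finger protein that associates with TREX. It had 573, 719 and 749 CPM with exon 5, 660, 734 and 663 CPM without, and 0, 81.7 and 0 CPM in the inputs. The isoform groups were close to each other and apart from the inputs. Its log2 fold change was 4.58 with exon 5 (SE 1.10, edgeR adjusted p = 0.0239) and 4.59 without (SE 1.10, edgeR adjusted p = 0.0241).

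Ncbp3 encodes a cap-binding protein that associates with TREX. It had 82.8, 166 and 139 CPM with exon 5, 71.7, 82.3 and 30.1 CPM without, and 979, 1531 and 486 CPM in the inputs. The inputs were the high libraries, with no overlap. Ncbp3 fell by 2.95 on the log2 scale with exon 5 (SE 0.74, edgeR adjusted p = 0.0274) and by 4.03 without (SE 0.78, edgeR adjusted p = 0.0124). In the inputs, 504 of its 513 counts lay in the 3' UTR, so a fall over its coding sequence is not shown.

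**Figure D2:**
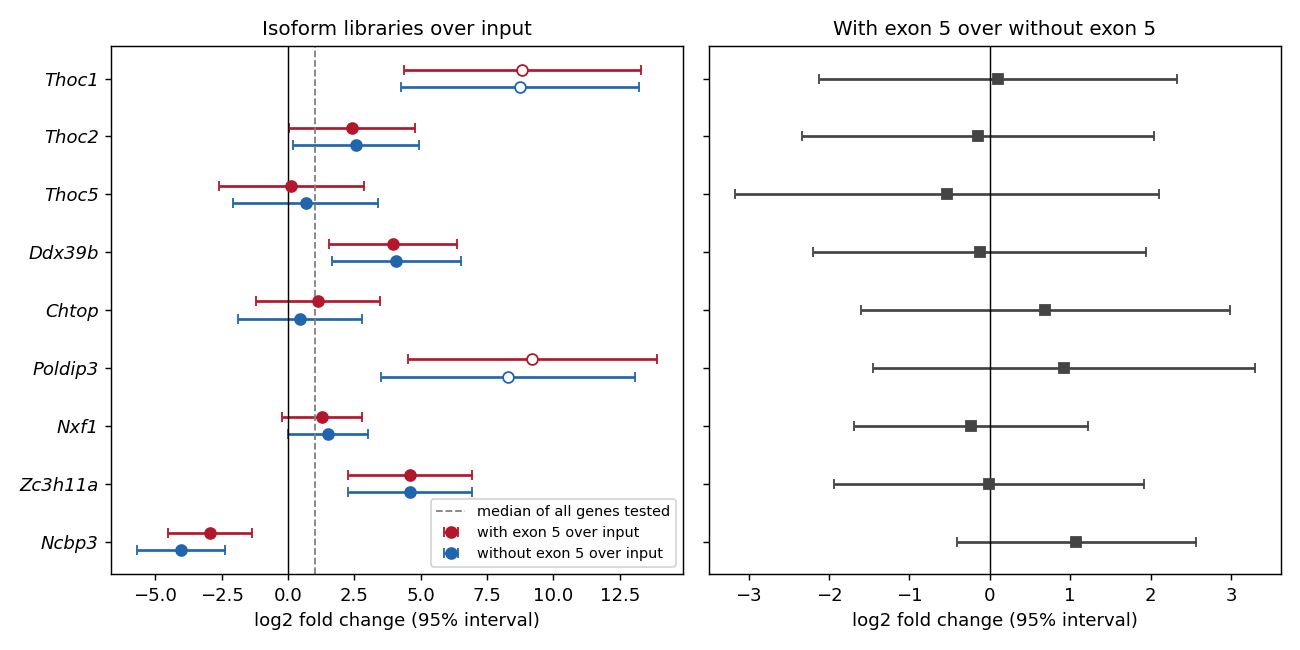
Log2 fold change of each gene with its 95% interval (horizontal axes). The left panel sets the libraries with exon 5 and those without over the inputs, with open circles where all 3 inputs are at 0 and the fitted value is no bound, and a dashed line at the median of all genes, 1.03. The right panel sets the isoform with exon 5 over the isoform without, and all 9 intervals include 0.

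Levels can be set between genes only per length. With exon 5, the order by CPM per kb of annotated length was Ddx39b (204 ± 50.7), Zc3h11a (155 ± 21.4), Chtop (111 ± 5.93), Nxf1 (107 ± 15.5), Thoc2 (54.3 ± 8.59), Poldip3 (34.8 ± 16.6), Thoc1 (21.2 ± 8.32), Thoc5 (12.2 ± 2.52) and Ncbp3 (10.7 ± 3.48; SD, n = 3 each). Only 3 steps between neighbours lay outside the spread of the libraries, those between Zc3h11a and Chtop, Nxf1 and Thoc2, and Thoc1 and Thoc5. Without exon 5 the order began with Ddx39b (223 ± 46.0), Zc3h11a (156 ± 9.50) and Nxf1 (126 ± 33.4), then Chtop at 68.4 ± 10.5, and ended with Ncbp3 (5.07 ± 2.28). Among 8342 genes ranked by CPM per kb, Ddx39b was at 79, Zc3h11a at 144 and Chtop at 297 with exon 5, and at 68, 159 and 789 without. By the inputs these 3 ranked 3499.5, 5110 and 765, so Chtop ranked about as high there as without exon 5. Nxf1 was at 322 with exon 5, 257 without and 911 in the inputs. In the inputs Ncbp3 led with 82.5 ± 43.2 CPM per kb, followed by Chtop (50.3 ± 73.6) and Nxf1 (44.2 ± 29.3), and every pair of neighbours overlapped.

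**Figure D3:**
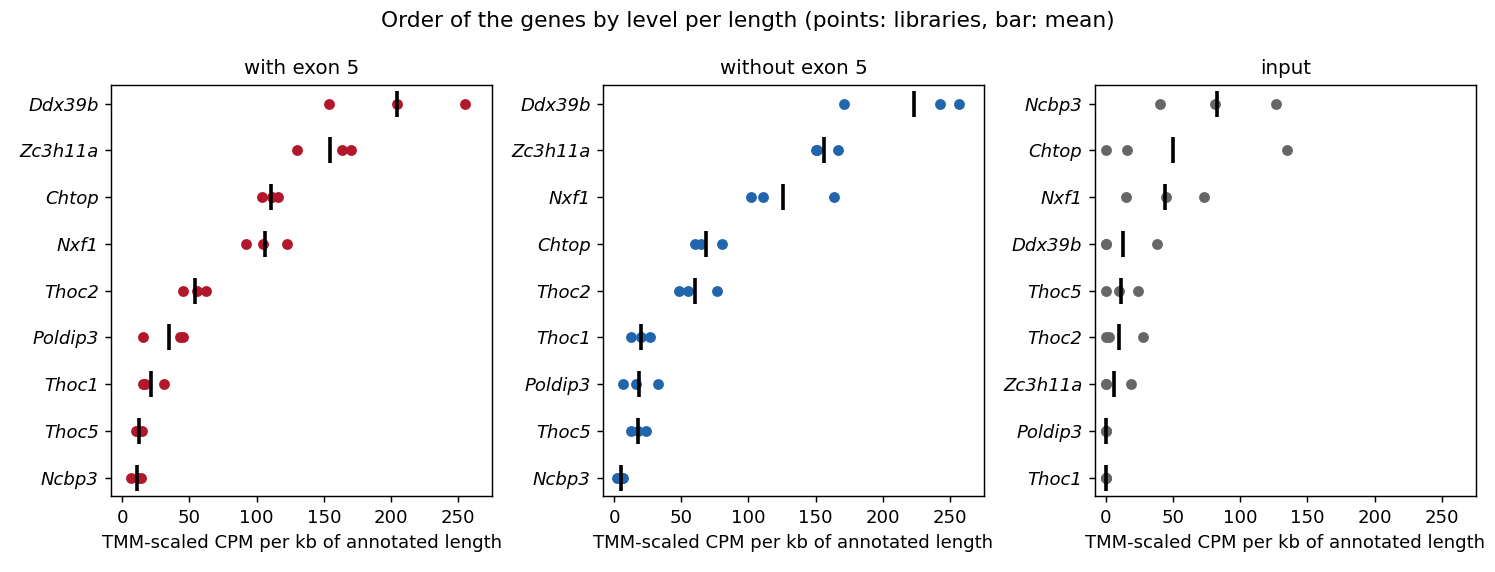
Level per length (horizontal axes, TMM-scaled CPM per kb) of the 9 genes, ordered within each group from the highest mean down. Points are the 3 libraries and the bar is the mean. Ddx39b and Zc3h11a lead both isoform groups, and Ncbp3 is last there and first in the inputs.

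Between the isoforms, none of the 9 genes passed by edgeR, none had an unadjusted p under 0.05, and over all genes 0% were called (93 of 8342 at an unadjusted p under 0.05, and 0 by DESeq2). Chtop and Ncbp3 were the 2 genes whose libraries did not overlap, both higher with exon 5, where 6.49% of all genes lay apart in that direction and 7.43% in the other. For Chtop the log2 fold change with over without exon 5 was 0.69 (SE 1.08, edgeR adjusted p = 1.00, 95% interval −1.61 to 2.99). For Ncbp3 it was 1.08 (SE 0.70, edgeR adjusted p = 1.00, 95% interval −0.41 to 2.56). Over the 9 genes the estimates ran from −0.54 (Thoc5) to 1.08 (Ncbp3) and the 95% intervals reached from −3.17 to 3.29, so these data do not show that the isoforms held these mRNAs alike.

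The parts of the genes were compared next. In the coding sequence (CDS), 2 of the 9 genes were higher with exon 5, Zc3h11a and Poldip3, where 16.6% of 6436 genes were. Without exon 5 they were Zc3h11a and Thoc1, where 16.3% were. No CDS was lower, where 0.886% and 0.497% were. The CDS of each of these 3 genes was at 0 in all 3 inputs and entered the test through the isoform libraries alone. In the 3' UTR, 7 of the genes were tested. None was higher, where 0.757% of 5023 genes were with exon 5 and 1.71% without. Ncbp3 was lower without exon 5, where 0.219% were, and none was lower with exon 5, where 0.159% were. Across all counts the CDS took 66.1% to 68.8% in the isoform libraries and 45.4% to 47.6% in the inputs.

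Zc3h11a was the gene whose CDS passed in both comparisons. Its CDS had 231, 391 and 486 CPM with exon 5 and 327, 440 and 399 CPM without, and 0 in all 3 inputs. By group means this was at least 20.0-fold higher with exon 5 (edgeR adjusted p = 0.0079) and at least 21.0-fold higher without (edgeR adjusted p = 0.0086). Left out, replicate 3 without exon 5 ended the call without exon 5 (edgeR adjusted p = 0.0575). The 3' UTR of Zc3h11a had 341, 328 and 263 CPM with exon 5 and 333, 294 and 264 CPM without, and it held all 15 input counts, at 81.7 CPM in replicate 2. Its log2 fold change there was 3.46 with exon 5 (SE 1.25, edgeR adjusted p = 0.093) and 3.40 without (SE 1.25, edgeR adjusted p = 0.102). The share of counts in the CDS was 53.2% ± 12.3 with exon 5 and 56.6% ± 6.07 without (SD, n = 3 each). A test of part use within the gene, both isoforms over input, passed for Zc3h11a (diffSpliceDGE of edgeR, adjusted p = 0.049), as for 8.7% of 4163 genes. The CDS value in that test was 4.45 on the log2 scale. All 15 input counts come from 1 library, and the sign turned without it (−0.59 without input replicate 2).

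The CDS of Thoc1 had 8.57, 11.4 and 65.5 CPM with exon 5 and 20.2, 67.0 and 49.7 CPM without. Its 3' UTR had 62.8, 117 and 0 CPM with exon 5 and 91.9, 16.5 and 2.80 CPM without. The shares of the 2 parts differed widely between libraries of the same isoform. By group means, Thoc1 CDS was at least 1.54-fold higher with exon 5 (edgeR adjusted p = 0.0594) and at least 2.47-fold higher without (edgeR adjusted p = 0.0456). Replicates 1 and 2 with exon 5 were below the input limit of 18.5 CPM, so the bound with exon 5 rests on replicate 3. The CDS of Poldip3 had 124, 68.5 and 15.9 CPM with exon 5 and 77.2, 23.5 and 4.90 CPM without. By group means it was at least 3.76-fold higher with exon 5 (edgeR adjusted p = 0.0389) and at least 1.90-fold higher without (edgeR adjusted p = 0.0605), though replicate 3 of each isoform was below that limit. Leaving out a single library raised these CDS values past the threshold in most cases, to at most 0.0961 for Poldip3 with exon 5 and 0.119 for Thoc1 without. All Thoc2 counts lay in the CDS.

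Of the 7 genes tested in the 3' UTR, Chtop was the 1 whose libraries with exon 5 all lay above those without, where 6.61% of genes did, and Ddx39b the 1 whose libraries lay apart the other way, where 6.31% did. Neither passed a test between the isoforms. The 3' UTR of Chtop, 2557 bases, had 111, 230 and 136 CPM with exon 5, 75.3, 51.7 and 61.6 CPM without, and 102, 32.7 and 0 CPM in the inputs. All 3 libraries with exon 5 were above the 3 without. The log2 fold change between the isoforms was 1.34 in the 3' UTR (SE 1.14, edgeR adjusted p = 1.00, 95% interval −1.06 to 3.74) and 0.35 in the CDS (SE 1.17, edgeR adjusted p = 1.00). The CDS of Chtop, 831 bases, had 241, 163 and 242 CPM with exon 5, 197, 168 and 142 CPM without, and 354, 21.8 and 0 CPM in the inputs. It overlapped between all 3 groups. The share of Chtop counts in the CDS was 58.0% ± 14.5 with exon 5 and 72.8% ± 3.39 without (SD, n = 3 each).

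For Ddx39b the 3' UTR, 221 bases, had 57.1, 22.8 and 47.7 CPM with exon 5, 121, 101 and 58.1 CPM without, and 0 in the inputs. Here every library with exon 5 was below every library without. The log2 fold change between the isoforms was −1.13 in the 3' UTR (SE 1.18, edgeR adjusted p = 1.00, 95% interval −3.61 to 1.36) and 0.18 in the CDS (SE 1.06, edgeR adjusted p = 1.00). The CDS share of Ddx39b was 82.3% ± 2.95 with exon 5 and 66.5% ± 2.99 without (SD, n = 3 each). In part use between the isoforms, neither Chtop nor Ddx39b passed (diffSpliceDGE of edgeR, adjusted p = 0.998 for both). That test called 0% of 4163 genes, with 73 at an unadjusted p under 0.05. Against input, the CDS of Ddx39b had 387, 481 and 635 CPM with exon 5 and 504, 336 and 488 CPM without, against 0, 114 and 0 CPM, and missed the threshold (edgeR log2 fold change 3.67, adjusted p = 0.0507, and 3.49, adjusted p = 0.0581).

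The 3' UTR of Ncbp3, 10144 bases, had 71.4, 144 and 53.3 CPM with exon 5, 45.9, 72.9 and 23.8 CPM without, and 925, 1531 and 486 CPM in the inputs. It fell by 4.36 on the log2 scale without exon 5 (SE 0.91, edgeR adjusted p = 0.0317), and with exon 5 the value was −3.45 (SE 0.87, edgeR adjusted p = 0.0512). The call without exon 5 ended when any 1 of the 6 isoform libraries was left out (edgeR adjusted p of 0.0664 to 0.177). The CDS of Ncbp3 held 114 counts with exon 5, of which replicate 3 gave 91, 31 counts without exon 5 and 9 in the inputs.

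**Figure D4:**
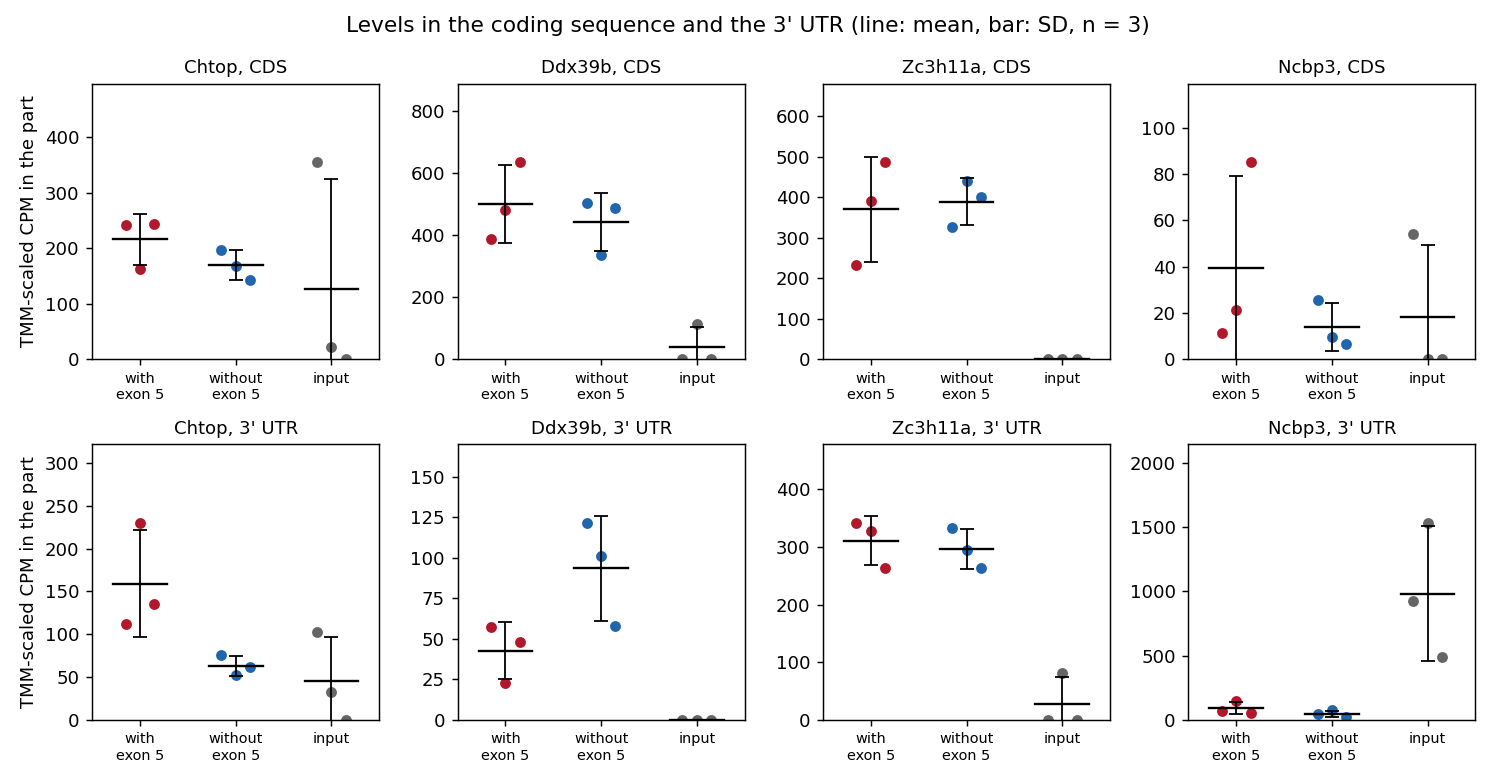
Level in the CDS (top) and the 3' UTR (bottom) of Chtop, Ddx39b, Zc3h11a and Ncbp3 (vertical axes, TMM-scaled CPM, from 0) in the libraries with exon 5, those without and the inputs. Points are libraries, the line is the mean and the bar the SD. In the 3' UTR, Chtop lies higher and Ddx39b lower with exon 5 than without, with no overlap, and Ncbp3 lies highest in the inputs.

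In the authors' deposited table of the isoforms, which gives a log2 fold change with over without exon 5 and a class per gene part, the 3' UTR of Chtop had 1.34 and was classed to the isoform with exon 5, while its CDS had 0.40 and was classed to both. The authors' deposited table classed the 3' UTR of Ddx39b (−1.11) and the CDS of Thoc5 (−1.09) to the isoform without exon 5, and the CDS of Poldip3 (1.06) to the isoform with exon 5. The remaining parts of these genes in the authors' deposited table were classed to both. Over all genes, the authors' deposited table put 7.41% of CDS and 9.87% of 3' UTR entries in the class with exon 5, and 8.32% and 10.1% in the class without. By its label, the class rests on a log2 fold change of 1.0 and the same direction in all replicates. The table holds no p-values that were used here. The edgeR test of the CDS gave 0.99 for Poldip3 (SE 1.32, adjusted p = 1.00) and −1.13 for Thoc5 (SE 1.52, adjusted p = 1.00), and both genes overlapped between the isoforms.

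Of the other export genes on 3 lists, 26 were named in the tables and 21 tested. The lists held 14 further TREX and adaptor symbols, 11 of the cap-binding and exon junction complexes and 10 of the TREX-2 complex and late export, with 7 genes tested from each. In each comparison with input, 3 of the 21 passed higher and none lower, where 8.31% and 8.12% of all genes were higher and 0.863% and 0.587% lower. The median log2 fold change was 1.12 with exon 5 and 1.77 without, beside 1.03 over all genes. Rbm15, an RNA-binding protein that acts in mRNA methylation and export, had 644 ± 140 CPM with exon 5, 961 ± 223 CPM without and 74.3 ± 76.4 CPM in the inputs (SD, n = 3 each), with log2 fold changes of 3.10 (edgeR adjusted p = 0.0469) and 3.68 (edgeR adjusted p = 0.0314). Acin1, an exon junction complex protein, had 1040 ± 297 CPM with exon 5, 925 ± 108 CPM without and 108 ± 112 CPM in the inputs, with log2 fold changes of 3.24 (edgeR adjusted p = 0.0397) and 3.07 (edgeR adjusted p = 0.0471). Ddx39a, the paralog of Ddx39b, was at 0 in the inputs and entered the test through the isoform libraries alone. It had 51.2 ± 46.1 CPM with exon 5 and 89.4 ± 10.8 CPM without. By group means it was at least 2.77-fold higher with exon 5 (edgeR adjusted p = 0.0494) and at least 4.83-fold higher without (edgeR adjusted p = 0.0354). Rbm15 and Ddx39a came from the TREX list and Acin1 from the cap and junction list, and none of the late export genes passed. At least 9 of the alternative settings ended each of these calls. With exon 5, Rbm15 passed in 7 of 18 alternatives, Acin1 in 8 of 18 and Ddx39a in 5 of 17, and without exon 5 they passed in 9, 7 and 7 of 18. Their edgeR adjusted p reached 0.239, 0.171 and 0.129 with exon 5, and 0.145, 0.256 and 0.104 without.

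The genes whose levels were most like those of Chtop, by Pearson correlation of log2 CPM over the 9 libraries among 6784 genes with a symbol, were Vps13a (0.990), Krit1 (0.989), Chd4 (0.989), Obsl1 (0.988) and Mapk10 (0.986). In each of the 5, as in Chtop, input replicate 1 was the highest input and replicate 3 the lowest. Of the other 8 measured genes of the set, Thoc5 was the most like Chtop at 0.924 (rank 235), and Ncbp3 the least at −0.386. The further export genes on the 3 lists were not ranked against Chtop. These correlations share libraries and depth, and they describe the pattern over 9 libraries only.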

How the data were processed

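Per the file headers, the tables the authors deposited hold unnormalized read counts of each gene and of its 5' UTR, CDS and 3' UTR. Gene counts differed from the sum of the parts in 0 cells. The deposited part lengths are in bases, and a further deposited table gives the authors' log2 fold change and class per gene part. The submitters' processing notes name mm10, TopHat2 and DESeq2. The sources used here do not give versions, the counting tool, strand handling or whether reads were collapsed by their random bases. In all, 27 columns of per-sample values were not used. The headers number inputs 1 and 2 in the opposite way to the sample titles, so inputs were matched by line and reverse transcription primer and numbered as in the titles.

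Genes were named from the deposited tables (11718 of 22442 had a symbol). Counts were tested with the quasi-likelihood method of edgeR 4.0.16 (R 4.3.3; filterByExpr at min.count 10 and min.total.count 15, TMM on the genes kept, robust fit), with all 9 libraries in 1 fit, no covariate, and Benjamini-Hochberg adjustment over all genes tested (threshold 0.05). Gene parts used the library sizes and TMM factors of the gene totals, and part use was tested with diffSpliceDGE. DESeq2 1.42.0 was an alternative. Where all inputs were at 0, folds are lower bounds of the group mean against the mean CPM of 3 counts per input.

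Named were every gene of the list, other export genes past the threshold in a comparison of totals, and the 5 genes most like Chtop. The members and lists were chosen with earlier results of these data known. TMM before the filter was run first and was replaced by TMM after the filter once its counts of calls had been seen; its values are in the closing section. Pairing by replicate number was not settled. By the title numbers, deviations of same-numbered libraries correlated at −0.015 to 0.039. By the header numbers, which swap inputs 1 and 2, each isoform library correlated best with the same-numbered input, at 0.014 to 0.037. Between the isoforms, replicates 2 and 3 with exon 5 correlated best with their own number (0.031 and 0.039), and replicate 1 did not. The neuroblastoma markers gave 1 gene past the threshold of 8 tested (Alk, higher with both isoforms), where 8.31% and 8.12% of all genes were higher. Their median log2 fold changes were −0.47 with exon 5 and −0.63 without, beside 1.03 over all genes.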

Additional observations from a re-analysis of the deposited data

Results flagged for a closer look

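Levels in the 5' UTR were not compared between groups by a test. There, Ddx39b was above the inputs: its 5' UTR had 14.3, 106 and 77.7 CPM with exon 5, 97.4, 71.7 and 219 CPM without, and 0 in all 3 inputs. The mean over the 6 isoform libraries was 97.6 CPM, against a limit of 18.5 CPM that a count of 0 allows in the inputs. The lowest library, replicate 1 with exon 5, was itself below that limit. The difference in level was not tested. In the test of part use (diffSpliceDGE of edgeR), the 5' UTR of Ddx39b had 3.44 on the log2 scale for both isoforms over input and did not pass (adjusted p = 0.406), and −0.59 with over without exon 5 (adjusted p = 1.00).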

How the results depend on the processing

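The 10 calls of gene totals against input kept their direction in all 179 repeats under other settings and passed in 96. The values that did not pass turned sign in 11 of 144 repeats and passed in 5. Over all 9 genes, no called fold change of a gene total, CDS or 3' UTR turned sign. The median of all genes, 1.03 in both comparisons with input, was 0.63 and 0.59 with RLE size factors and 0.39 and 0.37 with library size alone. The shallow inputs limit what can be seen: at 75504 to 173342 counts, a gene at 0 may still stand at 18.5 CPM.

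For totals with exon 5 over input, 765 genes passed. The count was 447 with RLE size factors, 1695 with DESeq2, 402 with library size alone and 29 in a fit of only the groups compared. For totals without exon 5 it was 726, and 358, 1603, 306 and 18 under those 4 settings. Of the 5 export genes past the threshold, 0 remained in both comparisons in the fit of only the groups compared, where Poldip3 was not tested without exon 5. Without exon 5 there were 3 with RLE size factors and 2 with library size alone. Between the isoforms, where 0 passed, 4 genes did without a filter and 2 in the fit of only the groups compared.

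By the title numbers, a library correlated best with its own number in 4 of 9 comparisons between groups. By the header numbers, every isoform library correlated best with the same-numbered input. With the replicate block, 273 and 284 genes passed in totals, of which 2 and 3 were export genes. With a block that numbers the inputs as in the headers, chosen after seeing the data, the counts were 296 and 292, with 2 and 3 export genes. The replicate block gave 478 and 426 genes in the CDS, 56 in the 3' UTR without exon 5 and 34 in part use. It turned the part use value against input in the CDS to 0.44 for Chtop and 0.36 for Ddx39b.

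In the CDS without exon 5, 686 passed with no filter. In the 3' UTR with exon 5, 46 passed, and 533 did with the part's own sums and TMM, 851 with DESeq2, 166 with no filter and 154 with TMM before the filter. In the 3' UTR without exon 5, 97 passed, and 631, 791 and 226 did with own sums, DESeq2 and TMM before the filter. Between the isoforms the 3' UTR gave 2 with DESeq2 and 1 with no filter. TMM before the filter and library sizes after it were added after seeing the data. In totals, TMM before the filter gave 968 genes (with exon 5 vs input) and 965 (without), with 5 export genes each; it moved no other count by over 1.5 times, and library sizes after the filter moved none.

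Leaving out each library in turn gave 58 to 2411 genes in totals with exon 5, 37 to 2354 without, 91 to 2223 and 5 to 2176 in the CDS, 2 to 703 and 3 to 692 in the 3' UTR, and 84 to 478 in part use against input. The highest count came without input replicate 2 each time. Of the export genes, 0 to 7 passed in each comparison with input. Between the isoforms it gave 0 each time in totals, CDS, 3' UTR and part use.

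Signs turned for values that had not passed, with 1 exception. Thoc5 with exon 5 over input was −0.34 with RLE size factors, −0.35 with DESeq2, −0.59 with library size alone and −0.095 in the fit of only the groups compared, and ran from −0.43 to 1.37 as libraries were left out. Without exon 5 it was −0.055 with library size alone. Its CDS ran from −1.80 to 0.59 with exon 5 and from −0.076 to 1.75 without as libraries were left out, and was −0.0191 with DESeq2 without exon 5. Chtop without exon 5 over input was −0.10 with RLE size factors and with DESeq2 and −0.35 with library size alone, and ran from −0.12 to 3.13 as libraries were left out. Its CDS was −0.13 and its 3' UTR −0.037 with DESeq2, and they ran from −0.13 to 3.94 and from −0.079 to 1.98.

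Between the isoforms, leaving libraries out gave −0.28 to 0.36 for Thoc1, −0.30 to 0.063 for Thoc2, −0.32 to 0.034 for Ddx39b, −0.032 to 0.33 for its CDS, −0.089 to 0.091 for Zc3h11a and −0.081 to 0.32 for Acin1. The header-numbered block gave 0.015 for Ddx39b and 0.029 for Zc3h11a, and Zc3h11a was 0.0196 with RLE size factors and with DESeq2. In part use against input, leaving libraries out gave −0.16 to 0.51 for the CDS of Chtop. The exception, the called value of Zc3h11a in part use, ran from −0.59 (without input replicate 2) to 4.88. The cause was not tested for any of these.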
